A study of Mus musculus with 8 samples.

Results

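The genes described here are 10 genes used as markers of the macrophages that live in spleen and liver, namely Spic, Cd5l, Vsig4, Clec4f, Timd4, Hmox1, Slc40a1, C1qa, C1qb and C1qc. They were chosen by name, and all 10 were found among the 52784 genes of the count table. RNA-seq was performed on 8 libraries of mononuclear cells sorted from F1 pups at 1 week of age. The cells came from whole-body harvests that included lymphoid organs, so spleen and liver were not sampled on their own. The pups came from CD11c-DTR dams on a C57BL/6 (B6) background mated with BALB/c males. Each group was a pool of pups in 1 library of trafficked maternal cells and 1 library of recipient (fetal) cells, so every comparison below is between 2 libraries, with no replicate check and no p value.

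Maternal cells were sorted by the B6 marker H2K-b and recipient cells by the BALB/c marker H2K-d. Recipient F1 cells carry both markers, so H2K-b by itself does not mark a cell as maternal. Whether the maternal libraries held recipient cells was not tested. In-utero transplantation (IUT) was performed at E14 with 5000000 bone marrow mononuclear cells per fetus, given into the liver. DC control mIUT pups received B6 CD45.1 cells (a maternal donor) and DC control pIUT pups received BALB/c cells (a paternal donor), both from dams given saline at E13. DC-depleted pIUT pups received BALB/c cells and came from dams given diphtheria toxin (DT) at 5 ng/g body weight at E13. Uninjected pups came from dams with or without DT and had no IUT. The DT receptor of CD11c-DTR mice is driven by the Itgax (CD11c) promoter, which some macrophages also use. B6 donor cells carry the maternal sort marker in mIUT, and BALB/c donor cells carry the recipient sort marker in pIUT, so donor cells and the sorted population cannot be told apart in those libraries.

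Red pulp macrophages of the spleen and Kupffer cells of the liver engulf aged red blood cells, break down their heme and return the iron to the blood. They also clear apoptotic cells and complement-coated microbes, and they are a main source of the complement component C1q. In the mouse, these cells are seeded before birth and persist in their tissues, while fetal liver and spleen are also sites of blood formation around the time of birth.

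Total estimated counts were between 38543457 and 47965130 per library. Levels are given as CPM, counts scaled to a common depth with TMM factors. The detection floor was set at 3 counts, which lay between 0.0547 and 0.105 CPM. Intervals are 95% intervals of counting error only. Markers of leukocytes in general were detected in all 8 libraries (5 of 5 genes in each). Neutrophil markers summed to between 1680 CPM and 273406 CPM and erythroid markers to between 156 CPM and 146484 CPM. The sorted cells thus differed widely in make-up, and recipient mIUT held both the highest neutrophil sum and the lowest erythroid sum. In bulk RNA, fewer cells of a type and less RNA per cell cannot be told apart. The recipient uninjected and maternal mIUT libraries stood apart. Of genes at 5 CPM or more in another library, 33.0% and 29.2% had 0 counts in them, against 3.69% to 16.2% in the other 6 libraries. Of genes at 10 CPM or more in all 7 other libraries, 9.51% and 4.86% were below 1 CPM in them, against 0% to 1.26% elsewhere.

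All 10 genes were detected in both DC-depleted pIUT libraries. In the maternal libraries, 8 were detected in uninjected, 5 in mIUT and 6 in DC control pIUT. In the recipient libraries, 8 were detected in uninjected, 8 in mIUT and 9 in DC control pIUT. Among genes at 5 CPM or more elsewhere, 0 counts were rarest in recipient DC-depleted pIUT (3.69%), then recipient DC control pIUT (8.92%). Maternal DC-depleted pIUT and recipient mIUT each had 13.3%, maternal DC control pIUT 15.8% and maternal uninjected 16.2%. Whether detection of the 10 genes differed from that of all genes was not tested. The highest level of 6 of the 10 genes was in the recipient uninjected library. The other 4 maxima were in recipient DC-depleted pIUT (Spic and Clec4f), maternal mIUT (Hmox1) and recipient mIUT (Slc40a1). The Hmox1 maximum was not set apart from recipient uninjected, since the intervals overlapped (214.1 to 223.4 CPM and 210.8 to 219.1 CPM). With the recipient uninjected and maternal mIUT libraries left out, a choice made after seeing the data, the recipient DC-depleted pIUT library held the highest level of 6 genes. That library also had the most genes with 10 counts or more, 16231. The share of all genes with their highest level in each library was not counted. These counts of maxima therefore do not set the 10 genes apart from all genes.

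**Figure D1:**
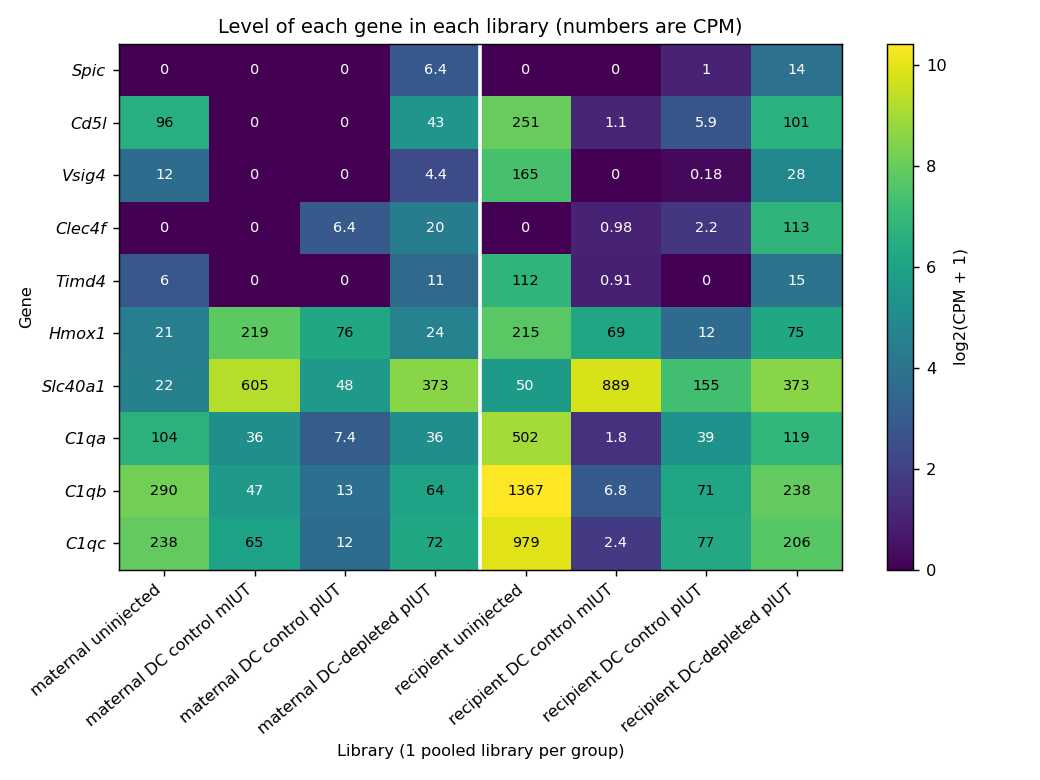
Level of each of the 10 genes (rows) in the 8 libraries (columns, maternal on the left and recipient on the right), with the CPM printed in each cell and the colour giving log2(CPM + 1). The DC-depleted pIUT columns hold no 0, while Spic, Cd5l, Vsig4 and Timd4 are at 0 in maternal mIUT and maternal DC control pIUT.

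Spic encodes an ETS-family transcription factor that red pulp macrophages need, and that heme induces. It lies on chromosome 10 (88510629 to 88520960, minus strand, GRCm39). It had 0 counts in 5 libraries, the maternal uninjected, mIUT and DC control pIUT libraries and the recipient uninjected and mIUT libraries. Its level was 6.39 CPM (211 counts) in maternal DC-depleted pIUT, 1.04 CPM (47 counts) in recipient DC control pIUT and 14.3 CPM (785 counts) in recipient DC-depleted pIUT. Spic was therefore detectable only in pIUT libraries, and both DC-depleted libraries were above the DC control ones. The gene with the profile most like that of Spic was Cd209f, a C-type lectin gene, with a root-mean-square difference of 0.23 between centred log2(CPM + 1) profiles over the 8 libraries. Cd209f had 353 counts in maternal DC-depleted pIUT, 69 in recipient DC control pIUT and 1005 in recipient DC-depleted pIUT, and 0 in the other 5. Clec1b, a C-type lectin that Kupffer cells carry, came next at 0.35.

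Clec4f encodes a C-type lectin that in the mouse is largely restricted to Kupffer cells. It lies on chromosome 6 (83621524 to 83633169, minus strand). It had 0 counts in the maternal uninjected, maternal mIUT and recipient uninjected libraries. Its level reached 6.44 CPM in maternal cells of DC control pIUT, 20.4 CPM in those of DC-depleted pIUT, 0.976 CPM in recipient mIUT, 2.17 CPM in recipient DC control pIUT and 113 CPM in recipient DC-depleted pIUT. The recipient DC-depleted pIUT level was 5.54-fold above the next highest library. The nearest genes were Vcam1, an adhesion molecule of macrophages and endothelium, at 0.44, and Apoh, a plasma protein made by hepatocytes, at 0.85. Apoh had 1426 counts in recipient DC-depleted pIUT, 967 and 170 in maternal cells of the DC-depleted and DC control pIUT groups, 19 in recipient mIUT and 0 in the other 4 libraries.

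Vsig4 encodes a receptor for complement C3 fragments on resident macrophages, and Timd4 encodes a receptor for phosphatidylserine, the lipid that apoptotic cells expose. Vsig4 lies on chromosome X (95290807 to 95337044, minus strand) and Timd4 on chromosome 11 (46701620 to 46735177, plus strand). The level of Vsig4 lay between 11.0 and 13.2 CPM (468 counts) in maternal uninjected, and was 0 in maternal mIUT and maternal DC control pIUT, and 4.39 CPM in maternal DC-depleted pIUT. Among recipient libraries it was 165 CPM in uninjected, 0 in mIUT, 0.177 CPM (8 counts) in DC control pIUT and 28.3 CPM in DC-depleted pIUT. Timd4 was at 6.04 CPM, 0, 0 and 11.2 CPM in the maternal libraries, in the order uninjected, mIUT, DC control pIUT and DC-depleted pIUT. It was at 112 CPM, 0.907 CPM (26 counts), 0 and 15.0 CPM in the recipient libraries in the same order. Both genes were thus at 4.39 CPM or more in uninjected and DC-depleted pIUT libraries of both origins, with higher levels in recipient than in maternal cells. They were at or near 0 in mIUT and DC control pIUT libraries of both origins. Each was among the 2 genes nearest to the other, at 0.72. B3gnt7, a glycosyltransferase gene, was nearest to Timd4 at 0.57, and Ccl24, a chemokine gene, was next for Vsig4 at 0.88.

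Cd5l encodes a secreted protein of tissue macrophages that binds lipids and microbial products. It lies on chromosome 3 (87265182 to 87278380, plus strand). Its level in the maternal libraries was 95.5 CPM in uninjected, 0 in mIUT, 0 in DC control pIUT and 42.8 CPM in DC-depleted pIUT. In the recipient libraries it was 251 CPM in uninjected, 1.15 CPM (33 counts) in mIUT, 5.89 CPM in DC control pIUT and 101 CPM in DC-depleted pIUT. The order of the 4 treatments was the same at the top of both origins, with uninjected first and DC-depleted pIUT second. Adgre4, an adhesion GPCR gene, was nearest at 0.87, and Ccl24 followed at 1.07.

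Hmox1 encodes heme oxygenase 1, which opens the heme ring and frees its iron, and Slc40a1 encodes ferroportin, which exports iron from the cell. Hmox1 lies on chromosome 8 (75820241 to 75827217, plus strand) and Slc40a1 on chromosome 1 (45947211 to 45965683, minus strand). Both were detected in every library. Hmox1 was at 21.2, 219, 75.9 and 23.6 CPM in maternal uninjected, mIUT, DC control pIUT and DC-depleted pIUT cells, and at 215, 69.4, 11.6 and 74.6 CPM in the recipient cells in that order. The 2 highest levels, in maternal mIUT and recipient uninjected, differed by 1.02-fold, and these are the libraries that stood apart. Slc40a1 was at 22.2, 605, 48.3 and 373 CPM in the maternal cells and at 50.5, 889, 155 and 373 CPM in the recipient cells. The 2 highest Slc40a1 levels were both in mIUT, and the 2 lowest were in maternal uninjected and maternal DC control pIUT. Slc40a1 in maternal and recipient DC-depleted pIUT did not differ beyond counting error (ratio interval 0.977 to 1.02), and the intervals also overlapped between maternal DC control pIUT (46.4 to 50.2 CPM) and recipient uninjected (48.5 to 52.6 CPM). For Hmox1, maternal DC control pIUT (73.5 to 78.3 CPM) and recipient DC-depleted pIUT (72.3 to 76.9 CPM) could not be ordered.

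The counts of these genes did not keep a fixed ratio. Hmox1 over Slc40a1 was 4.25 in recipient uninjected cells and 0.0632 in maternal DC-depleted pIUT cells, a 67.2-fold spread over the 8 libraries. For C1qa over C1qb the spread was 2.84-fold. These pairs were chosen after their values were seen. The genes nearest to Hmox1 were Tmem53, a membrane protein gene, at 0.49, and Idh1, which makes cytosolic NADPH, at 0.58. Those nearest to Slc40a1 were Xkr8, a lipid scramblase gene, at 0.49, and Tceanc, a gene related to transcription elongation, at 0.56.

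**Figure D2:**
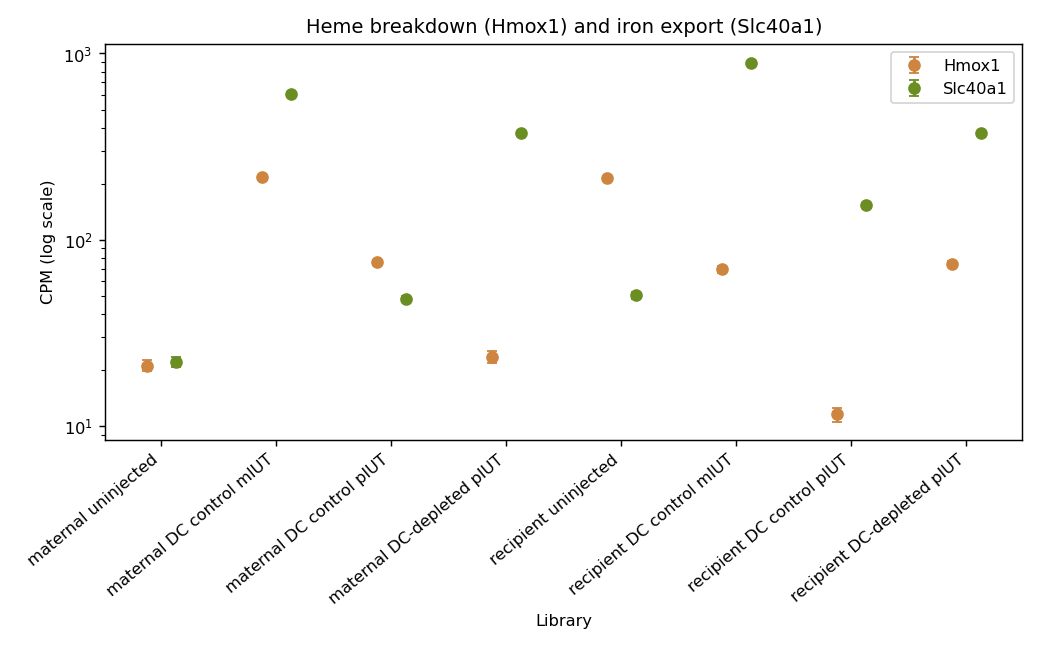
CPM of Hmox1 and Slc40a1 (log axis) in the 8 libraries, with 95% counting intervals that are mostly smaller than the points. Slc40a1 exceeds Hmox1 by the most in maternal DC-depleted pIUT, and Hmox1 exceeds Slc40a1 in recipient uninjected and in maternal DC control pIUT.

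C1qa, C1qb and C1qc encode the A, B and C chains of C1q, which assemble together into the molecule that starts the classical complement pathway. They lie side by side on the minus strand of chromosome 4 within 20153 bp, in the order C1qb (136606009 to 136613511), C1qc (136616466 to 136620376) and C1qa (136623223 to 136626161), with gaps of 2954 and 2846 bp. C1qb was at 290, 46.9, 12.9 and 63.6 CPM in maternal uninjected, mIUT, DC control pIUT and DC-depleted pIUT cells, and at 1367, 6.77, 70.7 and 238 CPM in the recipient cells in that order. C1qa was at 104, 35.6, 7.37 and 35.6 CPM in the maternal cells and at 502, 1.81, 39.2 and 119 CPM in the recipient cells. C1qc was at 238, 64.8, 11.7 and 71.8 CPM in the maternal cells and at 979, 2.37, 76.8 and 206 CPM in the recipient cells. All 3 genes were highest in recipient uninjected and lowest in recipient mIUT, where C1qa had 52 counts, C1qb 194 and C1qc 68. Each was among the 2 genes nearest to the other chains, with differences of 0.26 (C1qa and C1qc), 0.38 (C1qa and C1qb) and 0.47 (C1qb and C1qc).

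The share of each chain in the summed C1q counts varied less than the levels. C1qa held 16.5% to 24.2% of the counts, C1qb 31.8% to 61.8% and C1qc 21.7% to 44.0%. The recipient mIUT library gave the highest C1qb share, 61.8% (exact interval 56.2% to 67.2%, 314 C1q counts), and the lowest C1qc share, 21.7% (17.2% to 26.6%). C1qc exceeded C1qb in maternal mIUT (44.0% against 31.8%), maternal DC-depleted pIUT (42.0% against 37.2%) and recipient DC control pIUT (41.1% against 37.9%). Per kb of canonical transcript, the 3 genes were nearly level in recipient uninjected cells, at 462 (C1qa), 540 (C1qb) and 529 (C1qc) CPM per kb. They were also nearly level in recipient DC-depleted pIUT, at 109.4, 94.1 and 111.5. They were less level in the mIUT libraries, at 32.8, 18.5 and 35.0 in maternal mIUT and 1.67, 2.67 and 1.28 in recipient mIUT.

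**Figure D3:**
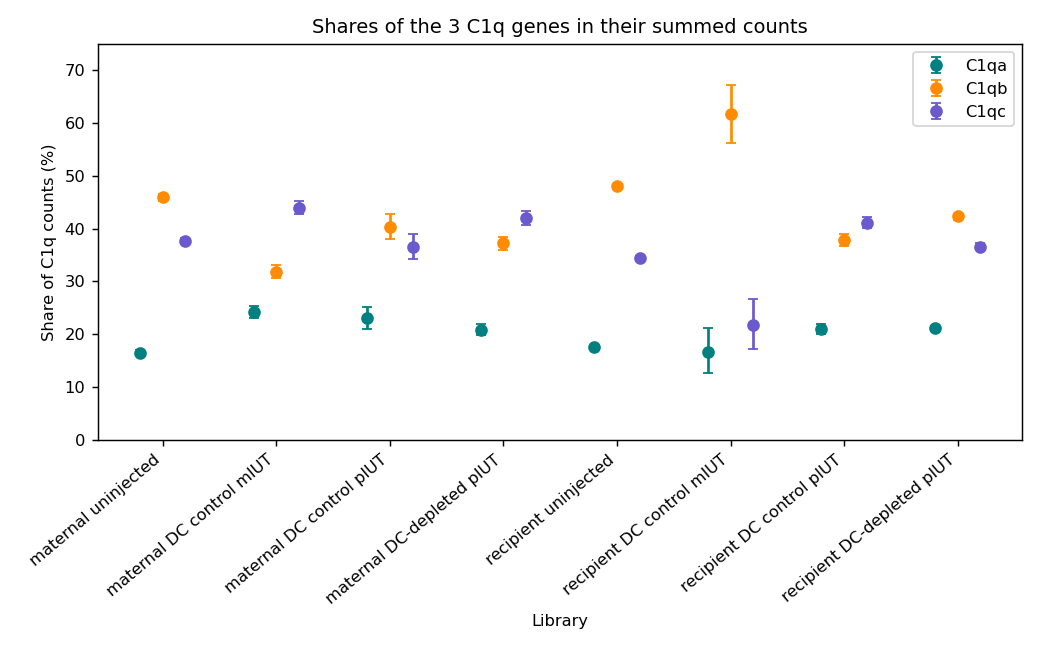
Share (%) of C1qa, C1qb and C1qc in their summed counts in each of the 8 libraries, with exact 95% binomial intervals. The recipient mIUT library has the widest intervals, with 314 counts, and the highest C1qb share.

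Upstream sequences (RefSeq, GRCm38.p6, a different build from the positions above) were at hand for 7 of the 10 genes, all but Hmox1, Slc40a1 and C1qa. Each covers the 250 bases before the gene's start, on the gene's strand. GAGGAA (or TTCCTC on the other strand), the core that PU.1-type ETS factors bind, was found in 4 of the 7, against 23.3% of 32851 promoters in a window of the same length. TGACNNNGC (or GCNNNGTCA), the core of the antioxidant response element, was found in 2 of the 7, against 10.2%. The motifs do not overlap in these windows. The 3 sequences below are those with more than 1 match (Vsig4 and C1qb) and that of Clec4f, whose recipient DC-depleted pIUT level stood furthest above its next highest library among the genes highest there. Matches are in capitals.
Vsig4 (chrX:96293439-96293688, minus strand): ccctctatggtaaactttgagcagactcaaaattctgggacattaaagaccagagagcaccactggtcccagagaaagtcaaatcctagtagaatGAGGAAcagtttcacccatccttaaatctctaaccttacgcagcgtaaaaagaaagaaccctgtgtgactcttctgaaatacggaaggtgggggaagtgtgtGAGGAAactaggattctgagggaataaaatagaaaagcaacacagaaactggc
C1qb (chr4:136886201-136886450, minus strand): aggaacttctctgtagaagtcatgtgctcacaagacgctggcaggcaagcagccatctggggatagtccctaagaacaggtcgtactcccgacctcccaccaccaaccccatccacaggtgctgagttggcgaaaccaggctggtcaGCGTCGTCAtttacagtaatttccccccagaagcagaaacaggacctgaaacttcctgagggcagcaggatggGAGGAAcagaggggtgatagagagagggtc
Clec4f (chr6:83656117-83656366, minus strand): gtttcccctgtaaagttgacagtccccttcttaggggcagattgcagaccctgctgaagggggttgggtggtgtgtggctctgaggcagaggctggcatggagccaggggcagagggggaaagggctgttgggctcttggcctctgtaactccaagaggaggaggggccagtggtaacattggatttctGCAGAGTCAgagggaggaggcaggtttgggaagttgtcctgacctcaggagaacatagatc
Vsig4 held GAGGAA at 155 to 150 and at 53 to 48 bases before the start, C1qb held it at 30 to 25, Cd5l held TTCCTC at 66 to 61 and C1qc at 193 to 188. The antioxidant core lay at 103 to 95 bases before the start in C1qb and at 61 to 53 in Clec4f. Spic and Timd4 held no match to either set of letters. A match is a description of the sequence and not a binding site.

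The effect of maternal DC depletion was addressed by comparing DC-depleted with DC control pIUT. In recipient cells, 6 of the 10 genes were at least 4-fold higher in DC-depleted pIUT and 0 were at least 4-fold lower. Of all 17219 genes with 10 counts or more in at least 1 of these libraries, 14.6% were at least 4-fold higher and 7.21% at least 4-fold lower. The median log2 ratio of the 10 genes was 3.24, against 0.10 for all genes. Vsig4 was 159.9-fold higher (81.0 to 371) and Clec4f 52.2-fold (42.8 to 64.4). Cd5l was 17.2-fold higher (15.2 to 19.5), Spic 13.8-fold (10.2 to 18.9) and Hmox1 6.45-fold (5.89 to 7.08). Timd4, at 0 counts in DC control pIUT, was at least 226-fold higher. The ratios of the other 4 genes lay between 2.41 (Slc40a1) and 3.37 (C1qb), all above 1 by more than counting error and below the 4-fold mark. In recipient cells, Vsig4, Clec4f, Cd5l, Spic, Hmox1 and Timd4 therefore moved by larger ratios than the C1q genes or Slc40a1.

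In trafficked maternal cells, the same comparison gave 8 of the 10 genes at least 4-fold higher with DC depletion and 0 lower by that much. The background was 24.9% higher and 28.4% lower of 15663 genes, and the median log2 ratio was 2.78 for the 10 genes and -0.07 for all genes. Cd5l was at least 721-fold higher, Timd4 at least 189-fold, Spic at least 108-fold and Vsig4 at least 74.0-fold, all from 0 counts in DC control pIUT. Slc40a1 was 7.73-fold higher (7.40 to 8.08), C1qc 6.12-fold (5.60 to 6.71), C1qb 4.92-fold (4.50 to 5.38) and C1qa 4.83-fold (4.30 to 5.45). Clec4f was 3.17-fold higher (2.77 to 3.63), and Hmox1 was 3.22-fold lower (2.98 to 3.48). Hmox1 thus had opposite directions in the 2 origins. Scaling by library size gave 6 genes higher and 1 lower in this comparison. It moved the share of higher calls among all calls from 46.7% to 36.5%, and the median of all genes from -0.07 to -0.65.

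**Figure D4:**
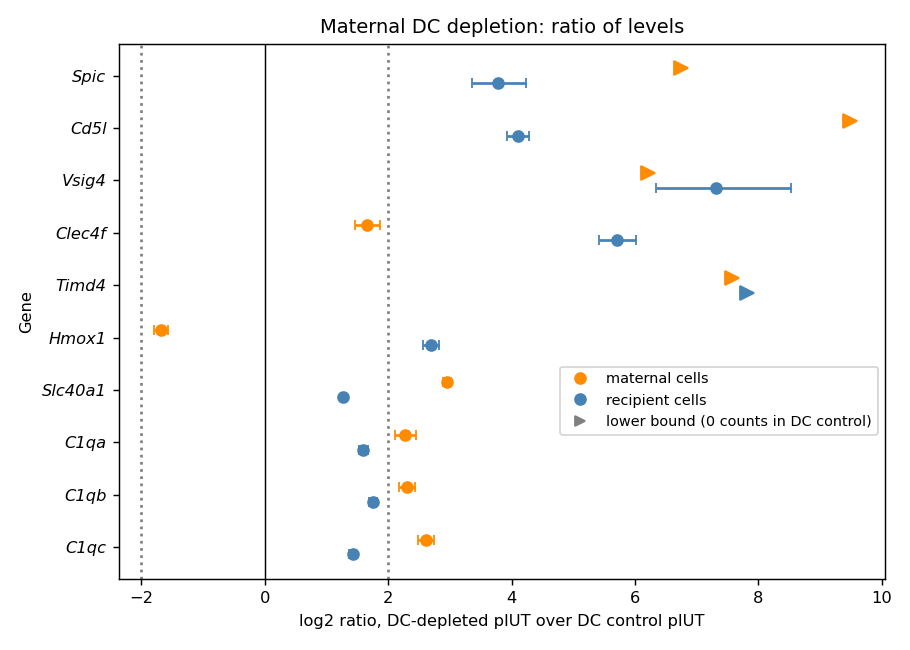
Log2 ratio of DC-depleted over DC control pIUT for each gene, in maternal (orange) and recipient (blue) cells, with 95% counting intervals; triangles are lower bounds from libraries at 0 counts and dotted lines mark 4-fold. All ratios are above 0 except that of Hmox1 in maternal cells.

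Marker lists of other cell types were set beside these genes. Of all genes, 14.6% were called higher and 7.21% lower in recipient cells, and 24.9% and 28.4% in maternal cells. A list count near these shares does not set the list apart from all genes. In recipient cells, all 8 hepatocyte markers were at least 4-fold higher in DC-depleted pIUT. Their summed level was 675 CPM against 5.14 CPM, and 4 of the 8 were at 0 in DC control pIUT, Alb among them. In maternal cells the summed hepatocyte level was 575 CPM against 155 CPM, with 2 of 8 called higher. Endothelial markers were higher in recipient cells for 5 of 8 genes, while their summed level was 32.2 CPM against 28.1 CPM. In maternal cells 6 of the 8 were lower (1.54 CPM against 81.1 CPM). Of the 8 neutrophil markers in recipient cells, 6 were lower and 2 were higher. The higher ones were Elane (1806 CPM against 77.2 CPM) and Mpo (10458 CPM against 416 CPM), enzymes of the primary granules that immature neutrophils make. T cell markers were lower for 4 of 6 and higher for 0. In maternal cells 5 neutrophil markers were higher and 1 was lower, Mmp8 (16.8 CPM against 158 CPM), while leukocyte markers in general were lower for 3 of 5 and higher for 0. Erythroid markers were higher for 3 of 8 in recipient cells and 1 of 8 in maternal cells, with 0 lower in either. Monocyte markers were higher for 2 of 6 and lower for 0 in recipient cells, and higher for 5 and lower for 1 of 6 in maternal cells. The part of these cells in the results for the 10 genes was not tested.

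Macrophage lists were read beside the same shares of all genes. These were 14.6% higher and 7.21% lower in recipient cells, and 24.9% and 28.4% in maternal cells. Of the 10 core macrophage genes, 2 were higher and 0 lower in recipient DC-depleted pIUT. Csf1r, the receptor for the macrophage growth factor CSF1, was at 335 CPM against 105 CPM. Of 14 other genes used as Kupffer cell and red pulp macrophage markers, 10 were higher and 0 lower. Cdh5 is among the 14 and also stands in the endothelial list. Id3, the highest of the 14 by mean level, was at 64.3 CPM against 55.4 CPM and was not among the 10. In maternal cells the core list had 2 higher and 2 lower and the other Kupffer and red pulp list 6 higher and 3 lower. Markers of macrophages of other sites differed from list to list in recipient cells. Microglia markers had 0 of 6 called, peritoneal macrophage markers 0 of 3, alveolar macrophage markers 2 of 6 higher and 1 lower, and osteoclast markers 2 of 5 higher and 1 lower. Both measurable marginal zone and lymph node sinus markers, Marco (37.8 CPM against 1.42 CPM) and Siglec1 (8.74 CPM against 1.15 CPM), were higher, and both also stand in the list of 14 and are among its 10. In maternal cells, the microglia list had 4 of 5 higher and 0 lower, the alveolar list 3 of 6 higher and 2 lower, the peritoneal list 0 of 3 higher and 1 lower, the osteoclast list 1 of 4 higher and 2 lower, and the marginal zone list 1 of 2 higher. Conventional dendritic cell markers had 1 of 8 higher and 0 lower in recipient cells, and 3 of 6 higher and 2 lower in maternal cells. B cell markers had 1 of 6 higher in recipient cells and 1 of 5 in each direction in maternal cells, and NK cell markers had 0 of 5 called in recipient cells and 1 of 2 higher in maternal cells. T cell markers were higher for 2 of 5 in maternal cells. Lyz2, the highest core gene by mean level, was at 1488 CPM against 458 CPM in maternal cells and 4890 CPM against 10418 CPM in recipient cells.

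**Figure D5:**
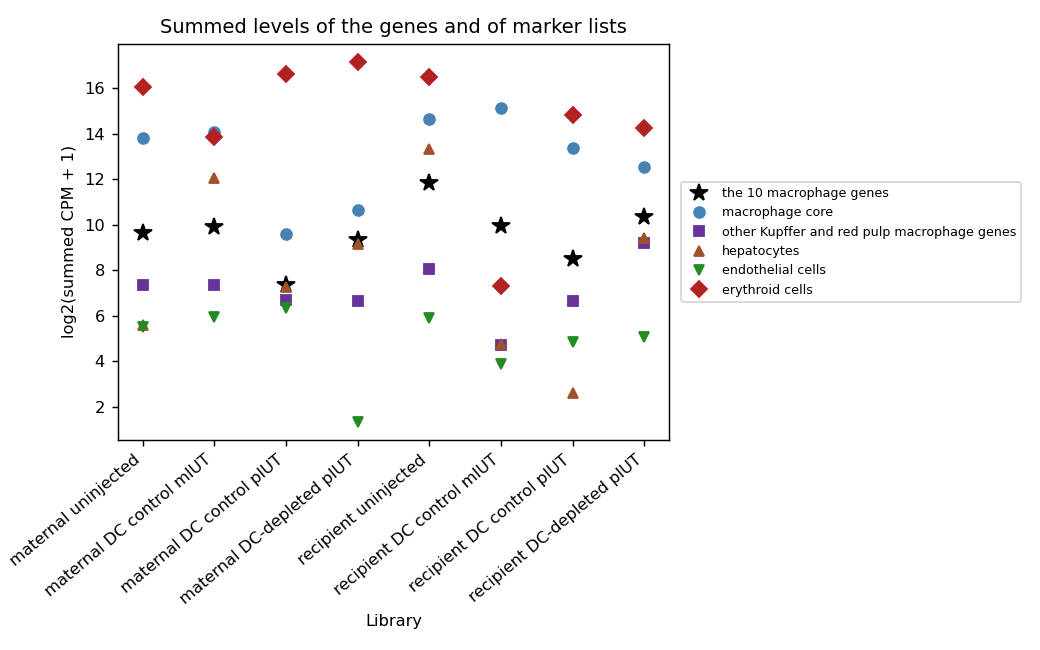
Summed CPM of the 10 genes (stars) and of marker lists in each library, as log2(summed CPM + 1). The summed level of the 10 genes is lowest in maternal DC control pIUT and highest in recipient uninjected, and hepatocyte and erythroid lists vary widely beside it.

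Pathway lists gave further context in these comparisons, and some of their genes also stand in the macrophage lists. The shares of all genes were again 14.6% higher and 7.21% lower in recipient cells, and 24.9% and 28.4% in maternal cells. The same shares apply to the complement, uptake and growth factor lists below. Of 21 measurable heme and iron genes, 8 were at least 4-fold higher and 0 lower in recipient DC-depleted pIUT, and 4 higher and 4 lower in maternal DC-depleted pIUT. Fth1 and Ftl1, the ferritin chains that store iron, were the highest of this list. Fth1 was at 1501 CPM against 1378 CPM in recipient cells, and Ftl1 at 3509 CPM against 2573 CPM. Slc11a2, an iron importer, was at 160 CPM against 26.1 CPM in maternal cells, and Steap3, which reduces iron in erythroid cells, at 87.1 CPM against 60.8 CPM. Of 18 macrophage and heme-response transcription factors, 2 were higher and 0 lower in recipient cells. Of 16 with a ratio in maternal cells, 2 were higher and 6 lower. Spi1, which encodes PU.1, was at 12.4 CPM against 61.0 CPM and Cebpb at 25.3 CPM against 726 CPM in the maternal cells.

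Of 17 complement genes with a ratio in recipient cells, 4 were higher and 1 was lower in DC-depleted pIUT. In maternal cells 2 of 11 were higher and 7 were lower. C5ar1, the receptor for C5a, was at 6.21 CPM against 206 CPM in maternal cells and 41.4 CPM against 252 CPM in recipient cells. For uptake of apoptotic cells and scavenger receptors, 8 of 19 were higher and 1 was lower in recipient cells. In maternal cells 1 of 18 was higher and 11 were lower. Axl, a receptor for apoptotic cells, was at 199 CPM against 19.2 CPM in recipient cells and 18.2 CPM against 13.6 CPM in maternal cells. For macrophage growth factors and their receptors, 0 of 12 were called in recipient cells. In maternal cells 1 of 10 was higher and 6 were lower.

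Against uninjected pups, the 3 comparisons of each origin share the same uninjected library. In recipient cells, 6 genes were at least 4-fold lower and 2 higher in mIUT, 7 lower and 2 higher in DC control pIUT, and 5 lower and 3 higher in DC-depleted pIUT. The background was 17.9% lower and 45% higher in mIUT, 13.4% and 45.4% in DC control pIUT, and 11% and 47.2% in DC-depleted pIUT. The median log2 ratio of all genes was 1.22, 1.36 and 1.69, while that of the 10 genes was -7.66 (over 9 genes), -3.95 and -1.81. The C1q genes were 202 to 413-fold lower in mIUT, 12.7 to 19.3-fold in DC control pIUT and 4.22 to 5.74-fold in DC-depleted pIUT. Vsig4 was at least 1575-fold lower in mIUT, 930-fold lower in DC control pIUT (472 to 2156, from 8 counts) and 5.82-fold lower in DC-depleted pIUT (5.51 to 6.15). Spic and Clec4f had 0 counts in uninjected. Spic was also at 0 in mIUT and has no ratio there, and it was higher by at least 16.8-fold in DC control pIUT and 231-fold in DC-depleted pIUT. Clec4f was at least 15.7-fold higher in mIUT, while the bounds were 35.0-fold for DC control pIUT and 1826.5-fold for DC-depleted pIUT. Slc40a1 was 17.6-fold, 3.06-fold and 7.39-fold higher in the same order.

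These comparisons rest on the recipient uninjected library, 1 of those that stood apart. Its Adgre1 level (encoding F4/80) was 713 CPM and its Fcna level 226 CPM, yet Axl, Id3 and Nr1h3 were at 0. Hepatocyte markers summed to 10215 CPM in it. Scaling by library size left 3 genes at least 4-fold lower in DC-depleted pIUT, where 5 were lower with TMM. The recipient mIUT library was extreme in make-up, with neutrophil markers summing to 273406 CPM and erythroid markers to 156 CPM.

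In maternal cells, 4 genes were at least 4-fold lower and 2 higher in mIUT than in uninjected pups, 6 lower and 1 higher in DC control pIUT, and 1 lower and 3 higher in DC-depleted pIUT. The background was 36.6% lower and 18% higher, 23.7% and 24.3%, and 26.3% and 23.6%. Cd5l, at 0 counts in both, was lower by at least 1232-fold in mIUT and 1610-fold in DC control pIUT, and it was 2.23-fold lower in DC-depleted pIUT (2.10 to 2.38). In mIUT, Hmox1 was 10.3-fold (9.60 to 11.1) and Slc40a1 27.2-fold (25.4 to 29.2) higher. C1qb was 6.17-fold lower in mIUT, 22.4-fold in DC control pIUT and 4.56-fold in DC-depleted pIUT. Maternal mIUT also stood apart, with Adgre1 and Mpeg1 at 0, neutrophil markers summing to 167264 CPM and hepatocyte markers to 4308 CPM.

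The donor source was addressed by comparing DC control pIUT with mIUT. In recipient cells, 5 genes were at least 4-fold higher and 3 lower in pIUT, against a background of 20.7% and 13.9%. The 2 libraries differed in make-up. Neutrophil markers summed to 48160 CPM in pIUT and 273406 CPM in mIUT, and erythroid markers to 29428 CPM and 156 CPM. C1qc was 32.4-fold higher (25.5 to 41.8), C1qa 21.6-fold (16.4 to 29.1) and C1qb 10.4-fold (9.04 to 12.1), while Hmox1 was 6.00-fold lower and Slc40a1 5.75-fold lower. Scaling by library size gave 5 higher and 1 lower, and moved the share of higher calls among all calls from 59.7% to 78.8%. In maternal cells, 1 gene was higher and 3 were lower in pIUT, against 37.2% and 19.4%. Slc40a1 was 12.5-fold lower (ratio interval 0.0766 to 0.0832), C1qc 5.53-fold lower (5.05 to 6.05) and C1qa 4.83-fold lower (4.31 to 5.43). C1qb was also lower, by 3.63-fold (3.32 to 3.97), short of 4-fold. Clec4f, at 0 in maternal mIUT, was at least 83.2-fold higher. With library-size scaling 1 gene was lower, Slc40a1, and C1qa and C1qc fell short of 4-fold, at log2 ratios of -1.71 and -1.91. Spic, Cd5l, Vsig4 and Timd4 were at 0 in both maternal libraries and have no ratio.

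The origins were compared within each treatment. In uninjected pups, 6 genes were at least 4-fold lower in maternal than in recipient cells and 0 were higher, against a background of 15.3% lower and 41.3% higher. Timd4 was 18.6-fold lower (16.3 to 21.2), Vsig4 13.7-fold (12.5 to 15.1) and Hmox1 10.1-fold (9.44 to 10.9). In DC control pIUT 5 were lower and 1 higher (25.3% and 19.1%), and Hmox1 was the higher gene, 6.56-fold (5.99 to 7.21). In mIUT 3 were lower and 3 higher (35.9% and 13.6%). The higher genes were C1qc at 27.3-fold, C1qa at 19.7-fold and C1qb at 6.93-fold. In DC-depleted pIUT 2 were lower, Vsig4 (6.45-fold) and Clec4f (5.54-fold), and 0 were higher (28.8% and 9.61%). With library-size scaling 6 were lower there, and the share of higher calls among all calls went from 25.0% to 12.6%.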

How the data were processed

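RNA-seq was from 8 libraries, 1 per group and origin, each pooling several pups. The authors deposited estimated counts per gene, not normalized, made against GRCm39 with a GENCODE annotation. The file format is that of salmon, while the methods name featureCounts. Clonotype tables were not used here. Estimated counts were rounded to whole numbers, and 97.99% of the gene identifiers were matched to the annotation; 0 columns belonged to no sample. TMM factors came from edgeR 4.0.16 in R 4.3.3. A ratio of CPM has an exact 95% counting interval, a count of 0 was set to 3, and a call was a ratio of at least 4-fold. Shares of all genes were taken among genes with 10 counts in at least 1 of the 2 libraries. The 10 genes and the lists were counted with a looser limit, more than 3 counts in at least 1 of the 2 libraries. With no replicates, no test was run. The calculation was tested on simulated data. Alternatives used library size, DESeq2 1.42.0 size factors, edgeR's exact test at dispersion 0.4, prior count 5, a filter in both libraries and, chosen after seeing the data, library size without erythroid and neutrophil genes. Tables and plots were made in Python 3.11.15 (scipy 1.17.1, pandas 2.3.3, numpy 2.4.6, matplotlib 3.10.9).

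The 10 genes and the lists (17 of cell types and 5 of pathways, 193 genes) were chosen with earlier results of these data known. Genes named are the 10, the 2 nearest to each by profile among 16876 genes, the 3 highest and 3 most variable of each pathway list, and the highest and lowest of each cell type list, described where they bear on a result; Alb, Adgre1, Mpeg1, Fcna, Nr1h3, Mpo and Mmp8 were named after their values were seen.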

Additional observations from a re-analysis of the deposited data

Results flagged for a closer look

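C1qa and C1qc were drawn out because DC control pIUT and mIUT differed in opposite directions in the 2 origins. On the log2 scale, pIUT over mIUT was -2.27 in maternal and 4.44 in recipient cells for C1qa, and -2.47 in maternal and 5.02 in recipient cells for C1qc. C1qb had the same directions, at -1.86 in maternal cells, short of 4-fold, and 3.39 in recipient cells. With library-size scaling the maternal values were -1.71 for C1qa, -1.3 for C1qb and -1.91 for C1qc, all short of 4-fold. With 1 library per group this difference between origins was not tested. The recipient mIUT library had 52 C1qa and 68 C1qc counts, and the highest neutrophil and lowest erythroid marker sums of the libraries. The B6 donor cells of mIUT carry the maternal sort marker and the BALB/c donor cells of pIUT the recipient sort marker, so donor and sorted cells cannot be told apart. No group had enough libraries to look for a sample far from the others.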

How the results depend on the processing

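No paired analysis was possible because, within each comparison of the report, each group had 1 library. A fit of origin over all 8 libraries with treatment as the pairing was not run. No library could be left out of a group. Of 88 calls among 127 ratios, 80 were kept with library-size scaling, 88 with DESeq2 size factors, 88 with edgeR's exact test at either prior count, 81 with library size without the erythroid and neutrophil genes (chosen after seeing the data), and 57 of 57 with at least 10 counts in both libraries. No call turned to the opposite direction under these alternatives. Counts of genes that moved by more than 1.5 times were as follows. With 10 counts in both libraries, maternal mIUT against uninjected had 1 lower, maternal pIUT 0 higher and 3 lower, and maternal DC-depleted pIUT 1 higher. Maternal DC-depleted against DC control pIUT had 4 higher, maternal pIUT against mIUT 0 higher, and recipient mIUT, pIUT and DC-depleted pIUT against uninjected 1, 0 and 1 higher. Maternal against recipient cells had 0 lower in mIUT and 3 lower in pIUT. Fewer genes can be measured with that filter. With library size, and also with erythroid and neutrophil genes left out, maternal pIUT against uninjected had 2 higher, maternal DC-depleted against DC control pIUT 1 lower, maternal pIUT against mIUT 1 lower, recipient DC-depleted pIUT against uninjected 3 lower, and maternal against recipient DC-depleted pIUT 6 lower. Library size alone also gave 1 lower in recipient pIUT against mIUT, and DESeq2 size factors gave 2 higher in maternal pIUT against uninjected. The cause was not tested for the scalings. Depth limits the genes at or near 0 counts, for which only bounds were given.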
